A study of Mus musculus with 4 samples.

Results

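Fibroblasts of the mouse hair follicle mesenchyme that carried transcripts of Coch, Mmp11, Dkk2 and related genes were described in 4 single-cell libraries. A cell was taken as a member when at least 4 of the 7 genes Coch, Mmp11, Dkk2, Tnn, Lgr5, Angptl1 and Plxdc1 had at least 1 unique molecular identifier (UMI, 1 counted transcript). At most 1 of the 4 genes Tnmd, Thbs4, Ednrb and Kank4 could have a UMI, and Ptprc, the pan-leukocyte gene, had to be at 0. This gate took 135 of 13877 kept cells, which came from 17130 deposited barcodes. Members were compared with 12632 other kept cells that had a Col1a1 UMI, within each library. Members were thus chosen by the detection of these 12 genes, so their levels are a description with no test.

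All mice were C57BL/6J and carried α-SMACreERT2, a Cre recombinase that tamoxifen switches on in cells using the smooth muscle actin promoter, together with a reporter at the Rosa locus. The drug, 4-OHT, was given on postnatal days 3 and 4 in all groups, and back skin cells were sorted as reporter-positive or Cd26-positive and, in addition, Itga9-positive or Cd200-positive. Per the labels, 2 mice went into each library and 10000 cells were sorted for it. An 18-month and a 2-month library came from RosaYFP mice and were made with 10x version 2 chemistry. A 12-month library and another 2-month library came from mice labelled RosaTDTomato and were made with version 3 chemistry. Each age and chemistry was thus 1 library, so intervals given for single libraries are exact 95% intervals that cover counting error only. The reporter marks only cells, and the progeny of cells, that used the promoter shortly after birth.

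The hair follicle is wrapped and fed by mesenchyme. The dermal papilla at its base sends growth signals to the hair-forming epithelium, the dermal sheath surrounds the bulb and holds progenitors that replenish papilla and sheath, and connective tissue fibroblasts lie around both. Coch encodes cochlin, a secreted matrix protein best known from the inner ear. Mmp11 encodes stromelysin-3, Dkk2 a secreted modulator of Wnt signalling, Tnn the matrix glycoprotein tenascin-N, Lgr5 a receptor for R-spondins that raises the response to Wnt, Angptl1 an angiopoietin-like secreted protein and Plxdc1 a plexin-domain membrane protein.

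The median kept cell held 6674 UMIs at 18 months and 6322 at 2 months with version 2 chemistry, and 11923 at 12 months and 12057 at 2 months with version 3. Members had medians of 7388 UMIs at 18 months and 6412 at 2 months with version 2, and 12282 at 12 months and 15434.5 at 2 months with version 3. One 2-month version 3 member held 90194 UMIs, 41.6% of all member UMIs of that library. Gene counts and age fits of members were therefore also computed without that cell. At most 11 barcodes were shared by any 2 libraries, and Xist was detected in 49 of 49 members at 12 months and in 10 of 10 at 2 months with version 3 and in none of 69 or 7 with version 2, so chemistry and this transcript went together. Free RNA was widespread: Col1a1 had a UMI in 77.9% to 94.9% of leukocyte-gate cells, so the comparison cells included nearly all cell types.

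Members made up a larger share of the older library than of the 2-month library in both pairs. With version 2, 69 of 2506 kept cells at 18 months (2.75%, 2.15 to 3.47) and 7 of 1729 at 2 months (0.405%, 0.163 to 0.832) were members. With version 3, 49 of 4087 cells at 12 months (1.20%, 0.888 to 1.58) and 10 of 5555 at 2 months (0.180%, 0.0864 to 0.331) were members. The ratio of shares was 6.80 (3.13 to 17.5) at 18 months and 6.66 (3.33 to 14.7) at 12 months. The intervals of the libraries did not overlap within either pair, but each interval covers 1 library and no test across libraries was made on the shares.

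The gate depended on depth. After every cell was thinned to 3000 UMIs, 25 of 2426 cells at 18 months and 2 of 1729 at 2 months passed, and 6 of 3947 at 12 months and 1 of 5344 at 2 months. The ratios were then 8.91 (2.22 to 77.6) and 8.12 (0.986 to 374), so the 12-month ratio, on 6 and 1 cells, was no longer outside counting error. Thinned cells with at least 3 of the 7 genes gave ratios of 5.58 (3.05 to 11.2) at 18 months and 8.32 (3.71 to 21.9) at 12 months. The latter rested on 43 of 3947 cells at 12 months and 7 of 5344 at 2 months. Without thinning, at least 3 of the 7 genes were found in 192 cells at 18 months and 36 at 2 months with version 2. With version 3, 162 passed at 12 months and 56 at 2 months. The ratios were 3.68 at 18 months and 3.93 at 12 months. Without the condition on Tnmd, Thbs4, Ednrb and Kank4 the counts were 82 at 18 months and 14 at 2 months with version 2, and 128 at 12 months and 37 at 2 months with version 3.

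**Figure D1:**
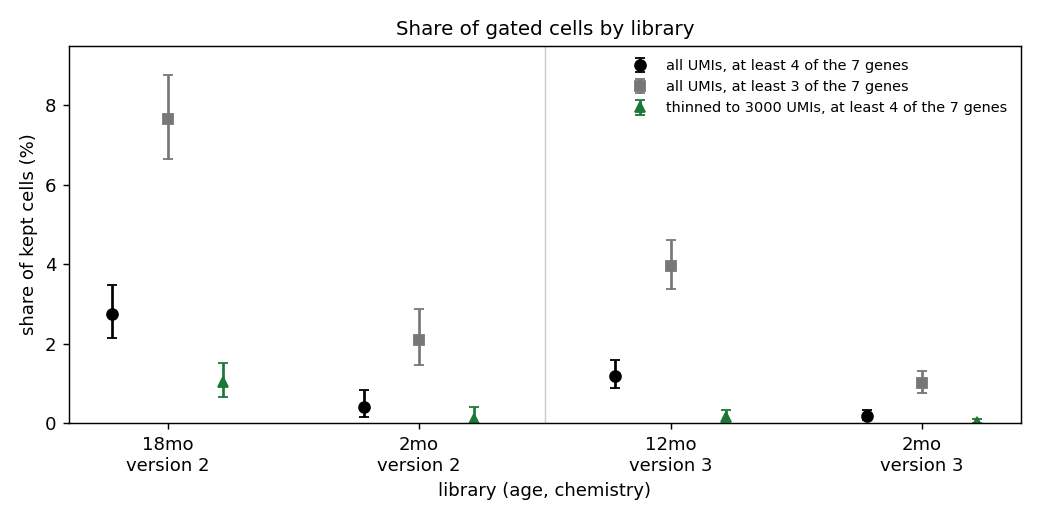
Share of kept cells that passed the gate (y axis, %) in each library (x axis), with the older library left of its 2-month library and exact 95% intervals as bars. Circles are the gate as given, squares at least 3 of the 7 genes and triangles cells thinned to 3000 UMIs; circles stand at 2.75% at 18 months and 0.405% at 2 months, and at 1.20% at 12 months and 0.180% at 2 months.

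Of the 7 genes, Dkk2, Mmp11, Coch and Plxdc1 were each found in most members of the older libraries. Dkk2 was detected in 63 of 69 members at 18 months and in 7 of 7 at 2 months with version 2, and in 46 of 49 at 12 months and in 9 of 10 at 2 months with version 3. Mmp11 was detected in 57 of 69 at 18 months and in 4 of 7 at 2 months, and in 40 of 49 at 12 months and in 10 of 10 at 2 months. Coch was detected in 44 of 69 at 18 months and in 6 of 7 at 2 months, and in 42 of 49 at 12 months and in 10 of 10 at 2 months. Plxdc1 was detected in 44 of 69 at 18 months and in 5 of 7 at 2 months, and in 36 of 49 at 12 months and in 5 of 10 at 2 months. Tnn was found in a minority of the older members: 12 of 69 at 18 months and in 12 of 49 at 12 months, with 3 of 7 and 5 of 10 in the 2-month libraries of version 2 and version 3. Tnn and Coch were detected together in 9 members at 18 months and 2 at 2 months, and in 9 at 12 months and 5 at 2 months.

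The amount of these transcripts differed more than their detection. Coch stood at 1213 CPM (a normalised UMI count: the gene's UMIs summed over a cell group and scaled to 1 common total of UMIs per group) at 18 months and 490 at 2 months with version 2, and at 662 at 12 months and 73.7 at 2 months with version 3. The highest member held 72 Coch UMIs at 18 months and 16 at 2 months with version 2, and 80 at 12 months and 4 at 2 months with version 3, while the median member held 3 at 12 months and 1 in each other library. In the 2-month version 3 library the 10 members were thus close to the least the gate allows, with 12 Mmp11, 16 Coch and 6 Tnn UMIs in all. Angptl1 was found in 42 of 69 members at 18 months and 3 of 7 at 2 months, and in 24 of 49 at 12 months and in 1 of 10 at 2 months. Lgr5 was found in 35 of 69 at 18 months and in 0 of 7 at 2 months, and in 10 of 49 at 12 months and in 1 of 10 at 2 months. The gate's own minimum was the most frequent value: 103 of the 135 members had exactly 4 of the 7 genes, 28 had 5 and 4 had 6. Cells just inside and just outside the gate differ in the 7 genes by the split itself, so these rates are no result. At 18 months the 52 members with exactly 4 genes had Dkk2 in 88.5% and Coch in 55.8%. The 123 cells with exactly 3 had them in 62.6% and 40.7%. Lum, which is outside the gate, was in 90.4% of those 52 members and 81.3% of those 123 cells.

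Leukocyte-gate cells, which should lack these genes, give the level of free RNA. Coch had a UMI in 9.17% of them at 18 months and 20.9% at 2 months with version 2, and in 4.70% at 12 months and 5.82% at 2 months with version 3, and Dkk2 in 7.34% to 18.6% of them over the libraries, at median depths from 7995 to 10742.5 UMIs per cell with version 2 and from 8283.5 to 9077 with version 3. Each of these shares was below that of the members, which the gate required to be high. At 18 months Tnn had a UMI in 12 of 69 members (17.4%, 9.32 to 28.4) and in 36 of 327 leukocyte-gate cells, so the share of members with Tnn was not separable from free RNA. The highest of these members held 7 of the 34 Tnn UMIs, and amounts per leukocyte-gate cell are not compared here.

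The data do not bear out a single population marked by Coch and Tnn. Outside the gate genes, nearly all members of both older libraries carried Dcn and most carried Lum, genes of connective tissue fibroblasts, and those of the 2-month version 3 library did not. Dcn, which encodes the collagen-binding proteoglycan decorin, stood at 9075 CPM at 18 months and 6995 at 2 months with version 2, and at 9622 at 12 months and 18.4 at 2 months with version 3. Lum, its relative lumican, stood at 2790 CPM at 18 months and 1813 at 2 months with version 2, and at 1667 at 12 months and 0 at 2 months with version 3. Lum had a UMI in 63 of 69 members at 18 months and 2 of 7 at 2 months, and in 34 of 49 at 12 months and in 0 of 10 at 2 months. Dcn had a UMI in 4 of 7 members at 2 months with version 2, near the 51.2% of leukocyte-gate cells there, so its level in that library rests on few cells. It had one in 3 of the 10 members of the 2-month version 3 library, below the 37.4% of leukocyte-gate cells. The cells are therefore named below by the gate alone.

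The summed level of dermal papilla genes separated the same library. The 15 papilla markers summed to 988 CPM in members at 18 months and 810 at 2 months with version 2, and to 1115 at 12 months and 9062 at 2 months with version 3. Other Col1a1-expressing cells had 2512 CPM at 18 months and 2774 at 2 months, beside 1227 at 12 months and 2619 at 2 months. All 15 papilla genes were above 0 in the 2-month version 3 members, while Corin, Prom1 and Lef1 were at 0 at 18 months and 8 of the 15 were at 0 at 2 months with version 2. Corin, a protease made by the papilla, was found in no member with version 2, and in 15 of 49 at 12 months and in 6 of 10 at 2 months with version 3. In the 2-month version 3 library the member of 90194 UMIs held 57 of the 75 Corin UMIs. The papilla sum of that library was not computed without this member. The 7 genes of the Cyp2f2 and Lum fibroblast list summed to 13458 CPM at 18 months and 13478 at 2 months with version 2, and to 14528 at 12 months and 438 at 2 months with version 3.

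Markers of endothelium, leukocytes and keratinocytes were low in members. The 10 endothelial genes summed to 8.88 CPM at 18 months and 0 at 2 months with version 2, and to 4.48 at 12 months and 18.4 at 2 months with version 3, with 7 to 10 of them at 0. The 15 leukocyte genes other than Ptprc summed to 149 to 279 CPM, against 3658 to 10723 CPM in the other cells, and the 14 keratinocyte genes to 268 to 1322 CPM, against 5646 to 45782 CPM. Low leukocyte genes are in part set by the gate, since Ptprc had to be at 0. The 8 dermal sheath genes, with 4 more of the list left out as genes of the gate, were not low in every library. They summed to 917 CPM at 18 months and 725 at 2 months with version 2, beside 1642 and 1601 in other cells. With version 3 they summed to 1093 CPM at 12 months and 2627 at 2 months, beside 2044 and 2994. The 11 upper dermis genes summed to 3877 CPM in the 2-month version 3 members and 1142 in other cells there, and to 1853 and 1216 at 18 months. Scores of the doublet caller Scrublet placed 1 member, at 18 months, in the top 3% of its library.

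Tnmd, 1 of the genes of which a member could carry only 1, was in most 18-month members. It was detected in 60 of 69 members at 18 months and in 3 of 7 at 2 months with version 2, and in 25 of 49 at 12 months and in 1 of 10 at 2 months with version 3. Among other Col1a1-expressing cells the shares were 41.9% at 18 months and 24.9% at 2 months, beside 53.3% at 12 months and 52.9% at 2 months. Tnmd encodes tenomodulin, a membrane protein of tendon and dense connective tissue. In the 12-month library 81 of the other Col1a1-expressing cells had at least 4 of the 7 genes, more than the 49 members.

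**Figure D2:**
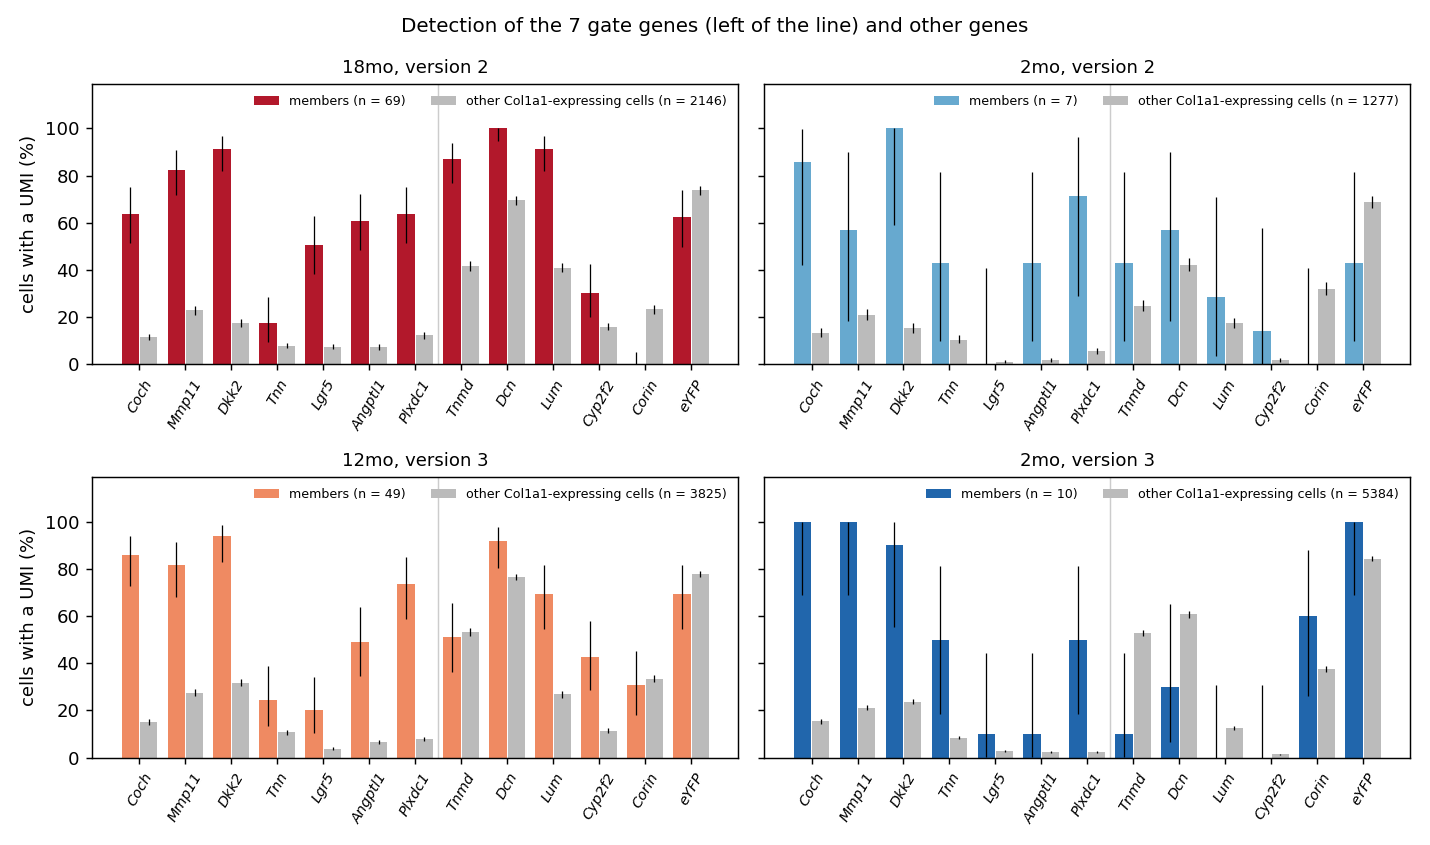
Share of cells with at least 1 UMI (y axis, %) for the 7 gate genes and 6 other genes (x axis) in members (coloured) and other Col1a1-expressing cells (grey) of each library, with exact 95% intervals. Dcn and Lum are high in members at 18 months (100% and 91.3%) and low in the 10 members of the 2-month version 3 library (30.0% and 0%).

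Clustering all kept cells of each library without the gate genes showed how far the members formed 1 group. At 18 months 59 of 69 members fell into 1 of 17 clusters, which held 238 cells and was led by Saa3, Ctla2a, Tnc, Mfap4 and Wisp2, and 5 fell into a cluster led by Mmp3, Pcolce2, Grem1 and Lum. At 2 months with version 2, 4 of 7 lay in a cluster led by Dcn, Lum and Clec3b, 2 in another and 1 in a cycling cluster led by Top2a. At 12 months 26 of 49 lay in a cluster of 401 cells led by Pi16, Lum and Cyp2f2, 10 in one led by Mgp, Chchd10 and Spp1, and 7 in one led by Rgs16 and Csrp2. At 2 months with version 3, 5 of 10 lay in a cluster led by Adh7, Bpgm, Stmn2 and Npr3, 2 in one led by Ndnf and Wif1, 2 in one led by Sostdc1 and Sfrp2, and 1 in another.

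Members were each other's neighbours mainly in the older libraries. Among the 15 nearest cells of a member, 31.6% were members at 18 months and 3.81% at 2 months with version 2, and 19.0% at 12 months and 1.33% at 2 months with version 3, each above the members' share of kept cells. In the 2-month version 3 library 9 of 10 members had no member among these neighbours, against 12 of 49 at 12 months. In no library did members fill a cluster: they were 24.8% of the main cluster at 18 months and 6.48% of that at 12 months.

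The 12-month members differed between clusters in the genes they carried. Of the 26 in the Pi16 and Lum cluster, 25 had a Lum UMI, 22 Angptl1, 20 Cyp2f2 and 2 Corin, and 1 had Tnn. Of the 10 in the Mgp and Spp1 cluster, 7 had Tnn, 5 Corin, 4 Lum, 0 Angptl1 and 0 Cyp2f2. All 7 members in the Rgs16 and Csrp2 cluster had Corin, 1 had Lum and none had Angptl1. The 18-month main cluster resembled the first in part: 56 of its 59 members had Lum, 37 Angptl1 and 0 Corin, and 8 had Tnn. Cyp2f2 was in 19 of these 59 and Pi16 in 33, beside 20 and 25 of the 26 at 12 months. Corin was in none of the 69 members at 18 months. The rest of that 18-month cluster, 179 cells, had Lum in 95.0% and Tnmd in 83.8%, beside 94.9% for each gene in its members.

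**Figure D3:**
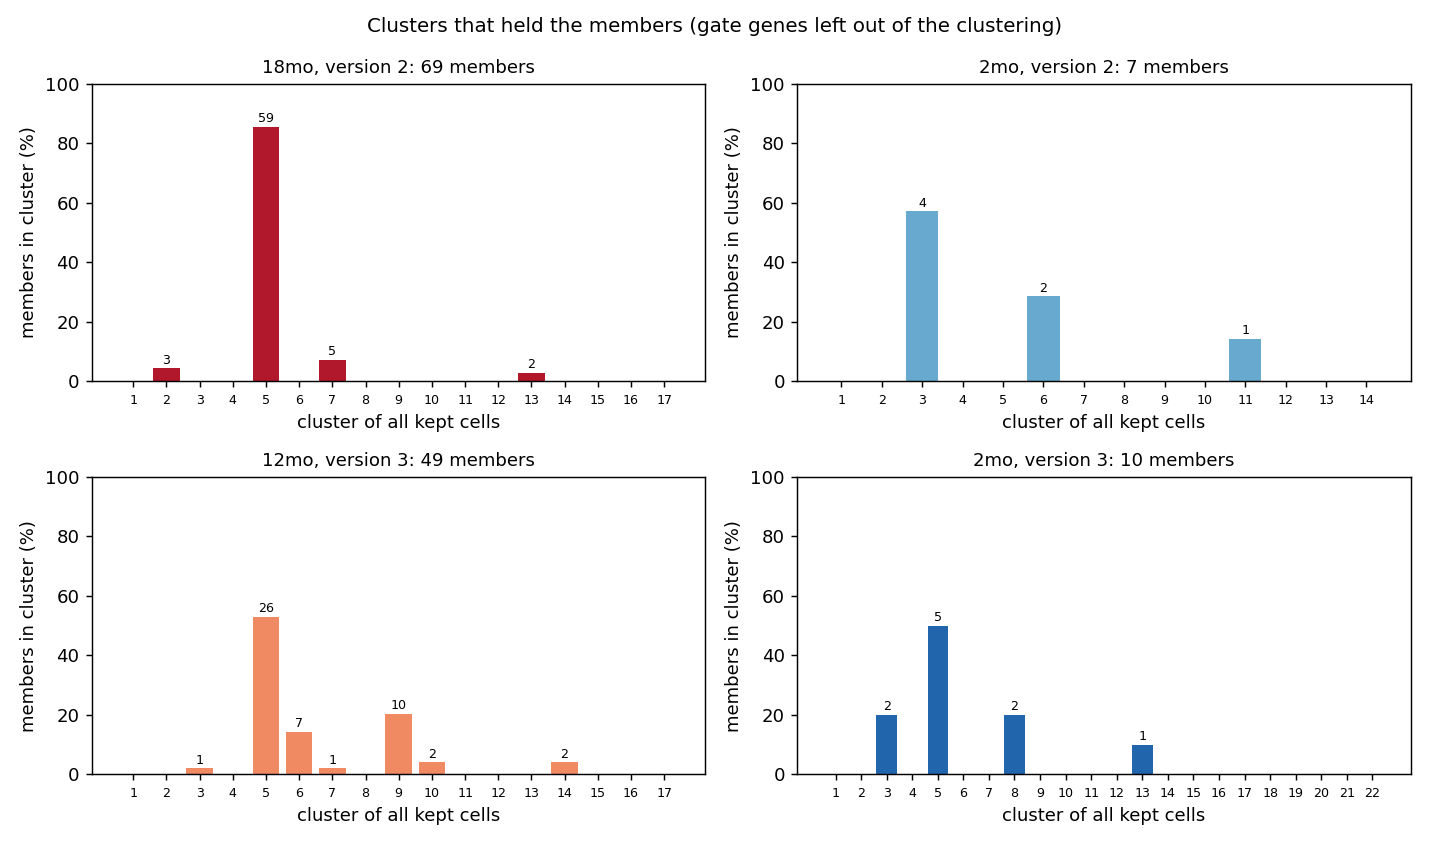
Share of members (y axis, %) in each cluster of all kept cells (x axis) of each library, older libraries left, with the number of members above the bars. The largest bars hold 59 of 69 members at 18 months and in 26 of 49 at 12 months, and 5 of 10 in the 2-month version 3 library.

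No gene was past 4-fold higher in members in all 4 libraries (0 of 210 with enough UMIs, 0.0%), and 2 were with the 2-month version 3 library left out. Taking both older libraries alone, a choice made after seeing these counts, 15 of 2354 genes with at least 30 member UMIs in each were past 4-fold (0.637%). At 2-fold, 98 of these 2354 were higher (4.16%), and 537 of 12424 genes with at least 30 UMIs in the other cells of each were lower (4.32%), so the shares have different bases. Of the 15, 5 were gate genes. The other 10 were Ccbe1, Pi16, Wisp2, Ccl19, Gas1, Mfap4, Ackr4, Ctla2a, Cilp and Fam180a.

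Pi16, a peptidase inhibitor of adventitial and fascial fibroblasts, stood at 560 CPM in 18-month members and 618 in 2-month members with version 2, and at 2108 in 12-month members and 0 in 2-month members with version 3. Its ratio to other Col1a1-expressing cells was 6.23 (5.50 to 7.03) at 18 months and 13.6 (12.9 to 14.4) at 12 months. Pi16 was not particular to members. In their main cluster it was in 55.9% of members and 48.0% of the other 179 cells at 18 months. At 12 months it was in 96.2% of members and 82.4% of the other 375 cells. Mfap4, Wisp2, Pi16 and Gas1 were among the leading genes of that 18-month cluster, of which members were 24.8%. Mfap4, an elastic fibre protein, stood at 3957 CPM in 18-month members and 1877 in 2-month members with version 2, and at 2389 in 12-month members and 115 in 2-month members with version 3. It was 6.77-fold (6.47 to 7.09) higher than in other cells at 18 months and 4.80-fold (4.56 to 5.05) at 12 months, and at 0.266 (0.172 to 0.393) of the other cells in the 2-month version 3 library. In the 2-month version 2 library 1 member held 27 of the 29 Pi16 UMIs and 57 of the 88 Mfap4 UMIs were in 1 member, so those levels describe single cells.

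Gas1, a membrane co-receptor for hedgehog ligands, was 6.06-fold (5.39 to 6.78) higher in members at 18 months and 5.01-fold (4.56 to 5.48) at 12 months, with a UMI in 63 of 69 members at 18 months and 45 of 49 at 12 months. Wisp2, a matricellular protein of the CCN family, was 5.68-fold (4.73 to 6.78) higher at 18 months and 7.15-fold (5.72 to 8.84) at 12 months. Ccbe1, needed for the activation of the lymphatic growth factor VEGF-C, was 6.64-fold (4.73 to 9.16) higher at 18 months and 6.83-fold (4.94 to 9.25) at 12 months. No single older member held more than 21.2% of the UMIs of Gas1, Wisp2 or Ccbe1 in its library, although Wisp2 was found in only 26 of 69 members at 18 months and 19 of 49 at 12 months.

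Cilp, a matrix protein of cartilage and fibroblasts, was the one of the 10 that was higher in members of every library, by 4.30-fold at 18 months and 13.7-fold at 2 months with version 2, and by 4.37-fold at 12 months and 2.96-fold at 2 months with version 3. Ackr4, a scavenging receptor for the chemokines Ccl19 and Ccl21, was 4.58-fold (3.13 to 6.51) higher at 18 months and 8.62-fold (6.28 to 11.6) at 12 months. Ccl19 itself was 5.58-fold higher at 18 months and 5.78-fold at 12 months, under the identifier ENSMUSG00000071005. The files hold a second entry with that symbol, and reads shared between the copies could not be told apart. Fam180a, a secreted protein with no established role, was 4.11-fold higher at 18 months and 6.37-fold at 12 months.

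Ctla2a, a cathepsin inhibitor, was uneven among members. It was 7.74-fold (7.26 to 8.24) higher than in other cells at 18 months and 4.42-fold (3.70 to 5.23) at 12 months. It was detected in 28 of 69 members at 18 months, where a single member held 276 of 1235 UMIs, and in 13 of 49 at 12 months, where one held 49 of 142. Ctla2a was not particular to members at 18 months: in their main cluster it was in 42.4% of members and 57.0% of the other 179 cells. In the 12-month main cluster it was in 42.3% of members and 27.5% of the other 375 cells. No UMI was found in the 7 and 10 members of the 2-month libraries, which allows a level of up to 3 UMIs in each.

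The set depended on the cells compared. Without cells with Ptprc and cells of the keratinocyte and endothelial marker lists, an alternative chosen after seeing the data, 7 of the 15 genes were past 4-fold in both older libraries, and 65 genes were lower, beside 211 of 12424 (1.7%) against all other Col1a1-expressing cells. The 10 named genes were then 3.00-fold to 5.60-fold higher at 18 months and 3.48-fold to 10.1-fold at 12 months. Against cells of the lower dermis and fascia gate they were 2.29-fold to 4.38-fold higher at 18 months and 3.11-fold to 8.27-fold at 12 months. The genes lower in members in all 4 libraries, 47 of 11610 (0.405%), were led by Krtdap, Perp, H2-Aa, Ly6d, Ly6g6c, Krt77, Cd74, Lgals7, Dmkn, Sfn, Calm4 and Sbsn, which are genes of the epidermis or of antigen-presenting cells. Against the reduced set of other cells 1 gene was left on this side.

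**Figure D4:**
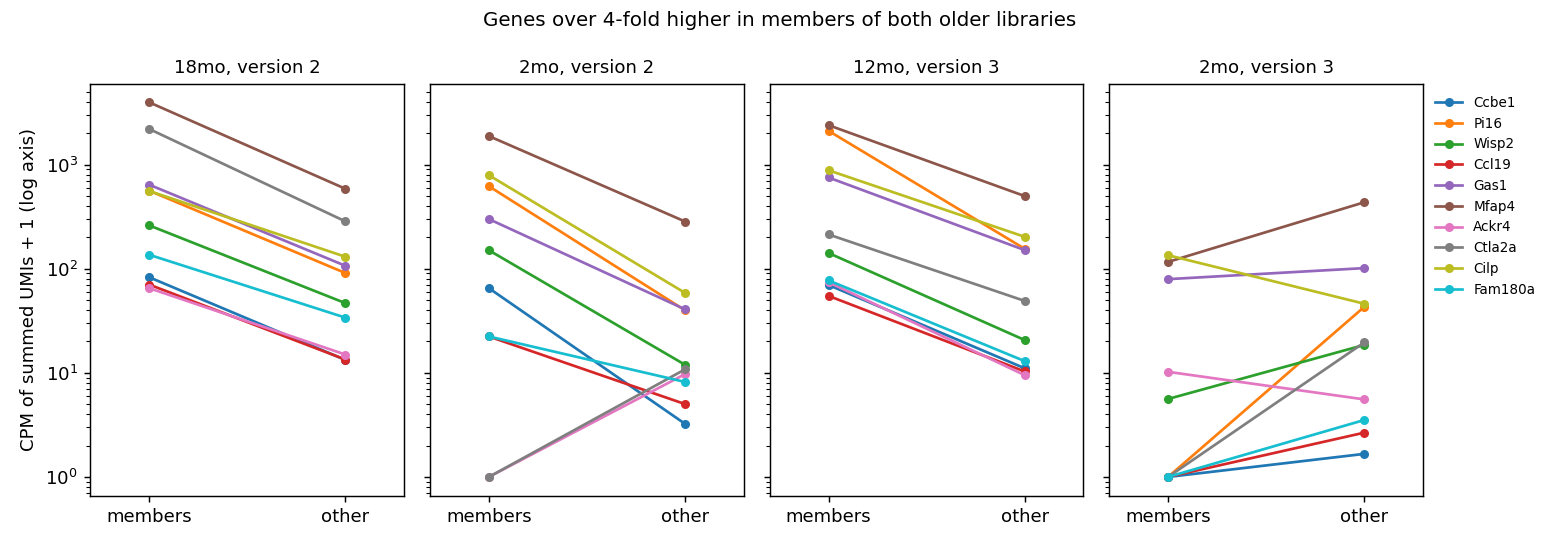
Level of the 10 non-gate genes past 4-fold in both older libraries (y axis, CPM of summed UMIs plus 1, log axis) in members and in other Col1a1-expressing cells (x axis) of each library, with 1 line per gene. All 10 genes are higher in members at 18 and 12 months; in the 2-month version 3 library 8 are lower in members, for example Mfap4 with 115 CPM in members and 433 in other cells.

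The lists of matrix genes had members on the higher side in both older libraries. The comparison was with all other Col1a1-expressing cells, and the lists were not compared with fibroblast gates alone. In the rest of the 18-month main cluster Dcn had a UMI in 100% of cells and Lum in 95.0%, beside 100% and 94.9% in its members. At 12 months the shares were 100% and 99.2%, beside 100% and 96.2%. Among 8262 genes with at least 5 expected UMIs, 131 were past 2-fold higher in members of both (1.59%) and 429 lower (5.19%). Of the 25 proteoglycan and elastic fibre genes tested, 7 were higher and none lower: Dcn, Lum, Fmod, Aspn, Eln, Mfap4 and Loxl1. Their median log2 ratio was 0.91 at 18 months and 0.72 at 12 months, against -0.016 at 18 months and 0.09 at 12 months over all genes tested. Eln, which encodes elastin, stood at 2.00-fold over other cells at 18 months and 4.44-fold at 12 months, and Loxl1, an enzyme that crosslinks elastin, at 2.75-fold at 18 months and 4.10-fold at 12 months. Of 18 matricellular genes other than the gate's, 4 were higher (Tnc, Tnxb, Thbs2 and Wisp2) and none lower. Of 21 collagens, Col16a1 and Col18a1 were past 2-fold higher and none lower.

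Proteases and growth factors were mixed. Of 25 metalloproteinase and inhibitor genes other than Mmp11, 5 were higher, among them Mmp2, Mmp14, Adamts2 and Ctla2a, and 3 lower (Mmp9, Adamts18 and Serpinb2). Mmp14, which activates the gelatinase Mmp2, was 2.89-fold higher at 18 months and 2.37-fold at 12 months, and Mmp2 2.69-fold at 18 months and 3.37-fold at 12 months. Igf1, a growth factor for the follicle epithelium, stood at 520 CPM in members at 18 months and 347 at 12 months, which was 5.87-fold over other cells at 18 months and 2.51-fold at 12 months, and Pdgfrb was the other of 25 growth factor and receptor genes on the higher side. Igfbp4 and Pdgfa were lower.

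Signalling genes of the follicle were counted likewise, beside 1.59% higher and 5.19% lower over the 8262 genes tested. The lists were small, so these counts are given without a verdict. Of 4 Wnt ligands tested 1 was higher, Wnt5b, by 2.07-fold at 18 months and 3.99-fold at 12 months. Of 8 genes on the list of secreted Wnt inhibitors other than Dkk2, Kremen1 was higher, and Frzb and Notum were lower. Kremen1 encodes a membrane receptor for Dickkopf proteins and not a secreted inhibitor. None of 11 R-spondin and Wnt receptor genes other than Lgr5 passed 2-fold in both. Of 28 BMP and TGF-beta genes, Inhbb and Tgfbr3 were higher and Bmp3, Nog and Id2 lower, and of 9 hedgehog genes Cdon and Gas1, both co-receptors, were higher and Hhip lower. The smooth muscle list was lower in 7 of 8 genes, among them Acta2, whose promoter drove the Cre: 83.5 CPM in members and 1900 in other cells at 18 months, and 605 in members and 4639 in other cells at 12 months.

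Variation among members of a library was ranked by gene. Of 5841 genes found in at least 5% of members of every library, the 12 with the highest smallest residual variance (1 means no more than counting noise allows) were Fos, Malat1, Vim, Hspa1a, Jun, S100a6, Col12a1, Actb, Dusp1, Junb, Igfbp4 and Cilp. Fos reached 9.89 at 18 months and 6.52 at 2 months with version 2, and 17.0 at 12 months and 6.05 at 2 months with version 3, where the median gene lay between 0.843 and 1.06 in each library. Fos, Jun and Junb are transcription factors induced within minutes of a stimulus, tissue digestion included, and Hspa1a is a heat shock chaperone. In both older libraries together Mfap4, Col1a1, Malat1, Col1a2, Col3a1, Dcn and Sparc led, so matrix genes also varied among members of 1 library.

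Members of the older libraries were next set beside 2-month members, the question of the series, with each pair in 1 chemistry. The gate held unlike cells on the 2 sides. Lum was found in 63 of 69 members at 18 months and 2 of 7 at 2 months, and in 34 of 49 at 12 months and 0 of 10 at 2 months. Age and the kind of cell gated therefore cannot be told apart in the ratios below, and the part of each was not tested. Of 3336 genes with at least 20 UMIs in a library of each pair, 86 were past 2-fold higher in older members in both pairs (2.58%) and 9 lower (0.27%). The filter could be met through the older library alone, whose members held more UMIs in all, so the 2 counts are not read as a direction, and the 86 include the gate's own Dkk2 and Tnmd. The 2-month libraries held 7 and 10 members, under the minimum of 20 set for the main age test. A fit on members despite this, added after seeing the data, gave 0 calls among 5186 genes by edgeR, while 445 had an unadjusted p under 0.05. Leaving out the member of 90194 UMIs gave 21 calls. The rule took the 12 genes ranked by the smaller ratio: Ctla2a, Ly6c1, Medag, Ogn, Fam180a, Creb3l1, Cxcl12, Aldh1a1, Cyp1b1, Fam102b, Cdkn2c and Cpxm2. For 7 of these 12 only 1 UMI was counted in the 2-month version 2 members, and for 5 the interval of the 18-month ratio took in 1.

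Ctla2a stood at 2194 CPM in 18-month members and 0 in 2-month members, and at 212 in 12-month members and 0 in 2-month members. Against 3 UMIs per 2-month library, that is at least 34.3-fold higher at 18 months and at least 15.3-fold at 12 months. Ly6c1, a surface protein of several mesenchymal and blood cell types, stood at 410 CPM at 18 months and 42.7 at 2 months, 9.62-fold higher (2.63 to 79.9), and at 599 at 12 months and 9.22 at 2 months, 65.0-fold higher (17.9 to 539). For both genes the intervals of the ratios lay above 1 in each pair.

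Ogn, the proteoglycan osteoglycin, stood at 744 CPM at 18 months and 64.0 at 2 months, 11.6-fold higher (3.95 to 56.6), and at 428 at 12 months and 69.1 at 2 months, 6.18-fold higher (3.69 to 11.2). Cxcl12, a chemokine that retains cells carrying Cxcr4, stood at 330 CPM at 18 months and 64.0 at 2 months, 5.16-fold higher (1.74 to 25.3), and at 260 at 12 months and 4.61 at 2 months, 56.4-fold higher (10.0 to 2241). The retinoic acid enzyme gene Aldh1a1 was found in 31 of 69 members at 18 months and 1 of 7 at 2 months, and in 21 of 49 at 12 months and in 0 of 10 at 2 months. Cdkn2c, an inhibitor of cyclin-dependent kinases, was found in 29 of 69 at 18 months and in 1 of 7 at 2 months, and in 22 of 49 at 12 months and in 1 of 10 at 2 months.

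The 9 genes lower in older members in both pairs were Mdk, Serpine2, Dnajb1, Acta2, Myl9, Hspa1a, Hspb1, Hspa1b and Id3. Hspb1 stood at 144 CPM at 18 months and 1493 at 2 months, and at 4011 at 12 months and 8942 at 2 months. Mdk, the growth factor midkine, stood at 92.4 CPM at 18 months and 469 at 2 months, 5.08-fold lower, and at 102 at 12 months and 493 at 2 months, 4.85-fold lower. Serpine2, a protease inhibitor abundant in the papilla, stood at 103 CPM at 18 months and 490 at 2 months, and at 65.8 at 12 months and 959 at 2 months. Single cells weighed heavily on these sums: 1 member held 155 of the 208 Serpine2 UMIs at 2 months with version 3 and 49 of the 70 Hspb1 UMIs at 2 months with version 2. All 9 were still past 2-fold without the member of 90194 UMIs, as were 62 of the 86.

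**Figure D5:**
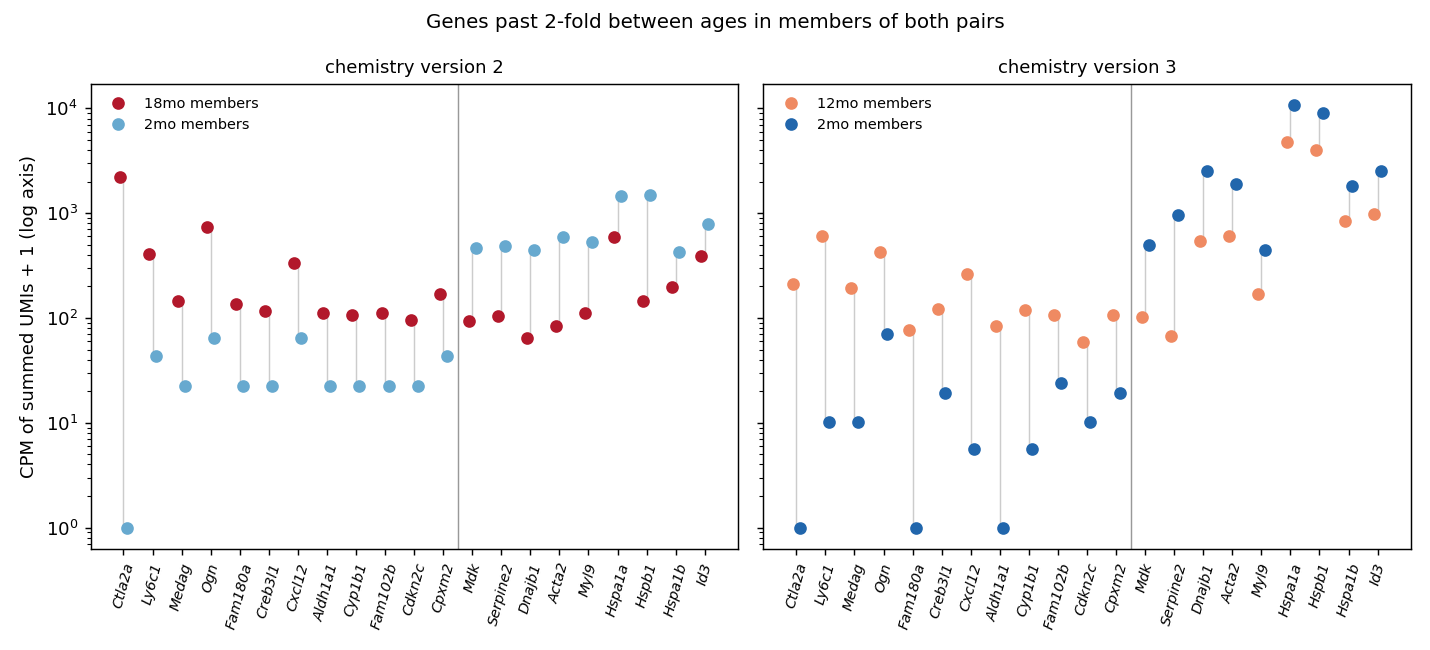
Level of the 12 genes ranked first as higher in older members and the 9 lower ones (x axis, divided by the line) in members of the older and the 2-month library (y axis, CPM of summed UMIs plus 1, log axis), version 2 left and version 3 right. Ctla2a is at 2194 and 212 CPM in older members and at 0 in both 2-month libraries.

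A test across all genes was made on the wider set of cells with at least 3 of the 7 genes, of which there were 192 at 18 months and 36 at 2 months with version 2, and 162 at 12 months and 56 at 2 months with version 3. edgeR's quasi-likelihood F test with chemistry as covariate and Benjamini-Hochberg adjustment called none of 9189 genes (0%). At an unadjusted p under 0.05 there were 981, and the lowest adjusted p was 0.0587. DESeq2's Wald test called 73, and edgeR called 45 without the top doublet scores and 572 without a filter on low counts. With 1 residual degree of freedom these calls hung on the setting, so the values below are given without a call.

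The 6 genes ranked first shared the lowest adjusted p. Cyp2f2, a cytochrome P450 of a Lum-rich fibroblast type, had a log2 difference of 4.43 ± 0.36 (SE; adjusted p = 0.0587, edgeR), older over 2 months. The eotaxin gene Ccl11 had 3.87 ± 0.34, the decoy receptor gene Il1r2 2.99 ± 0.29 and Lox, which crosslinks collagen and elastin, 2.74 ± 0.28, all with the same adjusted p. Edn3, an endothelin peptide, had -2.44 ± 0.25, and Ctla2a was the other gene with that adjusted p. Cdkn2a, a gene of the senescence list, had 2.58 ± 0.37 with an adjusted p of 0.0761.

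Lists of cell type markers are given for the wider set, with no called gene in any. The 13 papilla genes tested had a median log2 difference of -1.54, with -0.78 in the version 2 pair and -2.41 in the version 3 pair, and all 13 were below 0. The 7 Cyp2f2 and Lum fibroblast genes had a median of 2.39, with 1.53 and 3.18, and 6 of the 7 were above 0. Over all 9189 genes the median was -0.014. The 11 keratinocyte genes tested had a median of -2.30, with -0.32 in the version 2 pair and -3.86 in the version 3 pair, or -0.34 without top doublet scores. The 6 leukocyte genes had -2.43, with opposite signs in the pairs, -4.26 in version 2 and 0.48 in version 3. Their part in the other differences was not tested.

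Other lists are given beside that median, and none had a called gene. The 10 complement genes had a median of 1.48, with C4b at 3.47 ± 0.42 and Cfb at 4.27 ± 0.89. The 27 metalloproteinase and inhibitor genes had 1.05, with 24 above 0, and 19 chemokine and cytokine genes 1.02, with 15 above 0. For 25 proteoglycan and elastic fibre genes it was 0.77, for 20 matricellular genes 0.84, for 22 collagens 0.30 and for 21 senescence and cell cycle arrest genes 0.42. Of 18 heat shock and chaperone genes 13 were below 0, with a median of -0.46. The 7 genes tested on the list of secreted Wnt inhibitors had -1.33, with Frzb at -2.07 ± 0.38. The 8 dermal sheath genes had -0.49, all below 0, and the 11 lower dermis and fascia genes 1.23, with 10 above 0.

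Whether age differences were other in members than in the remaining cells was tested with both sums of each library in 1 model, with library as a block. It used the member sums, with 7 and 10 members in the 2-month libraries, under the minimum of 20 set for the age test. The spread was pooled over all genes and both cell groups in this fit, which left 1 residual degree of freedom. Its p-values therefore do not measure each gene's own spread between libraries. edgeR called 43 of 13577 genes, 23 with a higher (0.169%) and 20 with a lower (0.147%) age difference in members. DESeq2 called 2 of them, Serpine2 and Wif1, both lower, and none higher, and without papilla-gate and sheath-gate cells among the others edgeR called 14. Without the member of 90194 UMIs 29 genes were called, of which 20 were among the 43. With at least 3 of the 7 genes 85 were called, of which 11 were among the 43: Ctla2a and Flrt3 stayed called, while Ly6c1 stood at log2 1.20, Ccl7 at 1.12, Mgp at -0.53, Serpine2 at -0.94 and Ikzf4 at -1.39, none called.

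Ctla2a and Ly6c1 had a larger fitted age difference in members by edgeR and were not called by DESeq2. In other cells Ctla2a stood at 284 CPM at 18 months and 9.79 at 2 months, and at 48.1 at 12 months and 18.6 at 2 months. The difference between members and other cells in the age effect of Ctla2a had an adjusted p of 0.000318 (edgeR). That p rests on 0 UMIs in the 2-month members, and in the version 2 pair the interval of the members' ratio starts at 27.8, so a difference in size from the other cells is not shown for that pair. Ly6c1 in other cells stood at 214 CPM at 18 months and 45.9 at 2 months, and at 124 at 12 months and 59.6 at 2 months (log2 3.90 ± 0.70, adjusted p = 0.000174, edgeR). Ccl7, a monocyte chemokine, stood in members at 218 CPM at 18 months and 0 at 2 months, and at 141 at 12 months and 0 at 2 months. In other cells Ccl7 stood at 190 CPM at 18 months and 39.2 at 2 months, and at 301 at 12 months and 131 at 2 months (adjusted p = 0.00196, edgeR). Ccl7 had an adjusted p of 0.413 in cells with at least 3 of the 7 genes and was not called by DESeq2. Ly6c1 was found in 46 of 69 members at 18 months and 34 of 49 at 12 months, and no older member held more than 10.7% of its UMIs there.

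Several of the lower calls rested on single 2-month cells. Mgp, an inhibitor of calcification, stood in members at 30.2 CPM at 18 months and 3519 at 2 months, and at 160 at 12 months and 207 at 2 months. In other cells Mgp stood at 363 CPM at 18 months and 296 at 2 months, and at 82.5 at 12 months and 63.6 at 2 months (log2 -3.46 ± 0.50, adjusted p = 5.68e-08, edgeR). One 2-month member held 147 of the 165 Mgp UMIs of the version 2 library. Likewise 1 cell held 28 of 30 Cck UMIs there, and 1 held 35 of 36 Spp1 UMIs in the 2-month version 3 library. Nnat was at 134 CPM in the 2-month version 3 members and at 0 there without the member of 90194 UMIs, where the fitted difference turned to 8.12. Serpine2, Ikzf4 and Flrt3 were also called lower, at log2 -2.37 ± 0.48, -3.76 ± 0.74 and -3.82 ± 0.80 (adjusted p = 0.00196, 0.00126 and 0.00264, edgeR). Without the member of 90194 UMIs neither Ikzf4 nor Flrt3 was called, and Ikzf4 stood at 47.3 CPM in the 2-month version 3 members, and with it at 175.

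Of the further calls, some were picked here after their values were seen. Ogn (log2 2.39 ± 0.54), Mfap4 (2.37 ± 0.54), Postn (2.30 ± 0.53), Rarres2 (2.50 ± 0.58), Cxcl12 (2.89 ± 0.68) and Clec3b (2.86 ± 0.71) were among the 23, which also held the cell cycle genes Top2a and Ube2c. Tnmd (2.35 ± 0.57) was called too, but the gate limits its detection in members, so that call is not read as a result. Further lower calls held Wif1 (-2.07 ± 0.53), Scube1 (-3.48 ± 0.86) and Prlr (-2.96 ± 0.63), of which Wif1 is on the papilla list. Without the member of 90194 UMIs, Tnmd, Clec3b, Scube1 and Prlr were not called. The summed papilla level of the 2-month version 3 members, 9062 CPM, moved with these genes, and its part was not tested.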

How the data were processed

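The authors deposited raw UMI counts for each gene in each barcode. Per the submitters' processing notes they were made with STAR, Cell Ranger 2.0.1 and Seurat 2.1.0 on mm10 and GRCm38.p5, with roles not given. Kept cells had 500 or more genes detected, 1000 or more UMIs and less than 10% of them mitochondrial, and Scrublet scores were used only in an alternative. The members and gene lists were chosen with earlier results of these data known. Intervals are Clopper-Pearson or conditional Poisson (scipy 1.17.1). Clusters were made per library (scanpy 1.11.5; 2000 variable genes, 30 components, 15 neighbours, Leiden resolution 1).

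Genes past 4-fold needed 30 UMIs, and past 2-fold between ages 20 UMIs; against 0, 3 UMIs were used. Ratios at list level used a prior of 0.5 UMIs. Named were gate genes, the first 20 higher and 12 lower in members, the first 12 per direction in age, 10 of the age difference, 12 for variation and list genes; later calls of the age difference were picked after their values were seen. Tests used edgeR 4.0.16 with TMM and filterByExpr, DESeq2 1.42.0 and R 4.3.3, tried on simulated counts. The age test planned on members had under 20 of them in each 2-month library, so cells with at least 3 genes were used and members became an alternative. Libraries are taken as separate samples. With 1 residual degree of freedom, edgeR's p rests on a spread between libraries that is shared over genes, not on each gene's own spread alone. In the fit of the age difference the spread is wholly pooled.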

Additional observations from a re-analysis of the deposited data

Results flagged for a closer look

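Of the 43 genes called by edgeR's quasi-likelihood test of the interaction, the 10 with the lowest p are given. In these the fitted age difference in members was other than in the remaining Col1a1-expressing cells. The test pools both pairs and has 1 residual degree of freedom, and of the 10 DESeq2 called Serpine2 alone. The fitted differences of Ctla2a (log2 13.51) and Ccl7 (13.02) stand against 0 UMIs in both 2-month libraries, depend on the prior count and are no bounds. Ly6c1 had 3.90. Lower age differences in members were fitted for Mgp (-3.46), Ikzf4 (-3.76), Serpine2 (-2.37), Nnat (-5.16), Cck (-2.66), Spp1 (-2.44) and Flrt3 (-3.82). Those of Mgp, Cck and Spp1 rested largely on single 2-month cells, and that of Nnat turned to 8.12 without the largest member.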

How the results depend on the processing

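The share ratio stayed above 1 under all alternatives, from 3.68 to 8.91 at 18 months and 3.93 to 19.0 at 12 months, the highest with at least 5 of the 7 genes; at 18 months that setting had 17 and 0 cells, a ratio of at least 3.91. The count of 47 genes lower in members in every library was 75 without papilla and sheath gates in the comparison, 8 at matched depth and 1 without Ptprc, keratinocyte and endothelial marker cells; leaving out a library gave 47 to 106, the highest without the 2-month version 2 library, and 0 to 2 higher genes. In both older libraries 15 higher and 211 lower genes became 34 and 370, then 13 and 136, and 7 and 65 in the same order, and 11 and 84 with at least 5 genes. The age test's 0 calls became 572 without a count filter, 73 with DESeq2, 45 without top doublet scores, and 21 in members without the largest one, with 0 in all members. Leaving out a library, with no chemistry term, gave 2 to 155 calls: 44 without the 18-month, 155 without the 2-month version 2, 2 without the 12-month and 14 without the 2-month version 3 library. The 43 calls of the age difference became 2 with DESeq2, 96 without the chemistry by group term, 14 without papilla and sheath gates and 85 with at least 3 genes; without the largest member 20 of the 43 were called. Genes past 2-fold between ages became 131 higher and 30 lower with at least 3 genes, and only 33 of the 86 higher and 3 of the 9 lower genes were among them. Nnat turned to 8.12 without the largest member, and the senescence list's median to -0.0093 in members. The causes were not tested.

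Depth limits the 2-month members to 46893 and 216947 UMIs, and a gene at 0 there is below detection at that depth. Fits with at least 5 genes could not be made, as the 2-month version 2 library had no such cell. No paired analysis was possible because the groups share fewer than 2 replicate numbers, and the chemistry term sets each older library beside the 2-month library of its chemistry.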

Other observations

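Detection of the reporter did not set members apart. The files hold an eYFP entry, which had UMIs also in the libraries labelled RosaTDTomato: it was detected in 43 of 69 members at 18 months and in 3 of 7 at 2 months with version 2, and in 34 of 49 at 12 months and in 10 of 10 at 2 months with version 3. Leukocyte-gate cells had shares of 65.7% at 18 months and 62.8% at 2 months with version 2, and 58.4% at 12 months and 72.2% at 2 months with version 3. At 18 months and in the 2-month version 2 library the members' shares with any UMI were thus at or below that of free RNA. Amounts were uneven: single members held up to 150 eYFP UMIs at 18 months and 45 at 2 months with version 2, and many held 0. Amounts per leukocyte-gate cell were not compared, so free RNA is not shown to be the source of the higher counts. Dpp4, which encodes Cd26 of the other sort gate, was detected in 13 of 69 members at 18 months and in 2 of 7 at 2 months, and in 9 of 49 at 12 months and in 3 of 10 at 2 months.

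Corin and Lum divided the members of the version 3 pair. At 12 months 29 members had Lum alone, 10 Corin alone, 5 both and 5 neither. In the 2-month version 3 library 6 had Corin alone and 4 had neither. Crabp1, a retinoic acid binding protein gene, was found in 38 of 69 members at 18 months and in 3 of 7 at 2 months with version 2, and in 21 of 49 at 12 months and in 6 of 10 at 2 months with version 3. In the last of these, 1 cell held 327 of 427 UMIs.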
